A study of Mus musculus with 10 samples.

Results

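The genes described here encode 10 factors that make the 3' ends of messenger RNAs, namely Pcf11, Rbbp6, Cpsf2, Cpsf3, Cpsf4, Cpsf6, Cstf1, Cstf2, Cstf3 and Clp1. Their transcripts were measured on arrays in the mouse tumour line LLC (Lewis lung carcinoma), which stems from the C57BL/6 strain. They were taken by symbol, as all probe sets annotated to a single one of these symbols, and they are 10 of the 18193 genes with such a probe set on the array. Together they had 29 probe sets, of which 27 passed the filter on low values, with at least 1 for each of the 10 genes. The choice was made with the pH differences of these arrays known, so the pH differences are given below as a description, without a test.

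One line had been stably transfected with the proton-sensing receptor TDAG8, encoded by Gpr65, and the other with a control vector, and their cells are called TDAG8 cells and control cells. Serum was withdrawn from both for 12 h in DMEM with 0.1% bovine serum albumin at pH 7.4. The medium was then set to pH 6.4 or kept at pH 7.4, and RNA was taken after 4 h and after 12 h, as well as before this treatment. There were 10 Affymetrix arrays, 1 per line and condition, each hybridised with RNA pooled in equal amounts from 4 cultures, so there were no replicate arrays. The labels state neither the promoter of the construct nor whether a line is 1 clone.

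The single Gpr65 probe set read between 0.3 and 5.3 on all arrays, so it gives no check of the line labels. Of 10 epithelial markers 4 passed the filter, with Krt8 at 1242 to 2648 and the cadherin gene Cdh1 at 0.2 to 5.3. The summed signal of the epithelial markers was 2114 to 2899 in TDAG8 cells and 1304 to 2102 in control cells. Of 6 fibroblast markers 4 passed, with a summed signal of 7318 to 12833 in TDAG8 cells and 8145 to 11973 in control cells. The leukocyte and endothelial markers summed to at most 39.5 and 33.0 on any array. In these bulk samples a change in the share of cells that carry a transcript cannot be told apart from a change in transcript per cell.

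As background, the 3' end of almost every messenger RNA is made by cutting the growing transcript of RNA polymerase II and adding a poly(A) tail. The cleavage and polyadenylation specificity factor (CPSF) recognises the AAUAAA signal and holds the endonuclease. The cleavage stimulation factor (CstF) binds GU-rich sequence downstream of the cut, cleavage factor I binds UGUA motifs upstream of it, and cleavage factor II links the cut to the end of transcription. Many genes carry several poly(A) sites, and the amounts of these factors are known to affect which site is used.

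Values are the deposited linear signals, and differences are on a log2 scale after quantile normalisation and addition of a small constant, which understates differences of dim probe sets, also where they are given as folds. A gene is represented by its brightest probe set unless another is named. A gene was counted as lower or higher where its difference was at or beyond 0.58, about 1.5-fold, in the same direction in both lines. The precision of each value is limited by having 1 array per line and condition.

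Of the 10 genes, 3 were lower at pH 6.4 than at pH 7.4 after 4 h and 0 were higher. Among all 12161 genes that passed the filter, 8.58% were lower and 4.01% higher by the same rule. At 12 h 1 of the 10 was lower and 0 were higher, where 10.9% of all genes were lower and 9.42% higher. The pH difference was at least 0.58 higher at 12 h than at 4 h in both lines for 2 of the 10 and lower for 1, where it was higher for 9.27% of all genes and lower for 8.43%. Lower at 4 h and within the limit at 12 h in both lines were 2 of the 10 and 3.23% of all genes, or 37.7% of the genes that were lower at 4 h. The reverse, lower at 12 h and within the limit at 4 h, held for 1 of the 10 and 5.51% of all genes, or 50.7% of those lower at 12 h. Since these contrasts served to choose the genes, nothing is read from these shares. The 3 lower at 4 h were Pcf11, Rbbp6 and Cstf3, and the 1 lower at 12 h was Cpsf6, a gene within the limit at 4 h. The plot of signals by array shows these 4 patterns beside the 6 other genes, none of which passed the limit at either time.

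**Figure D1:**
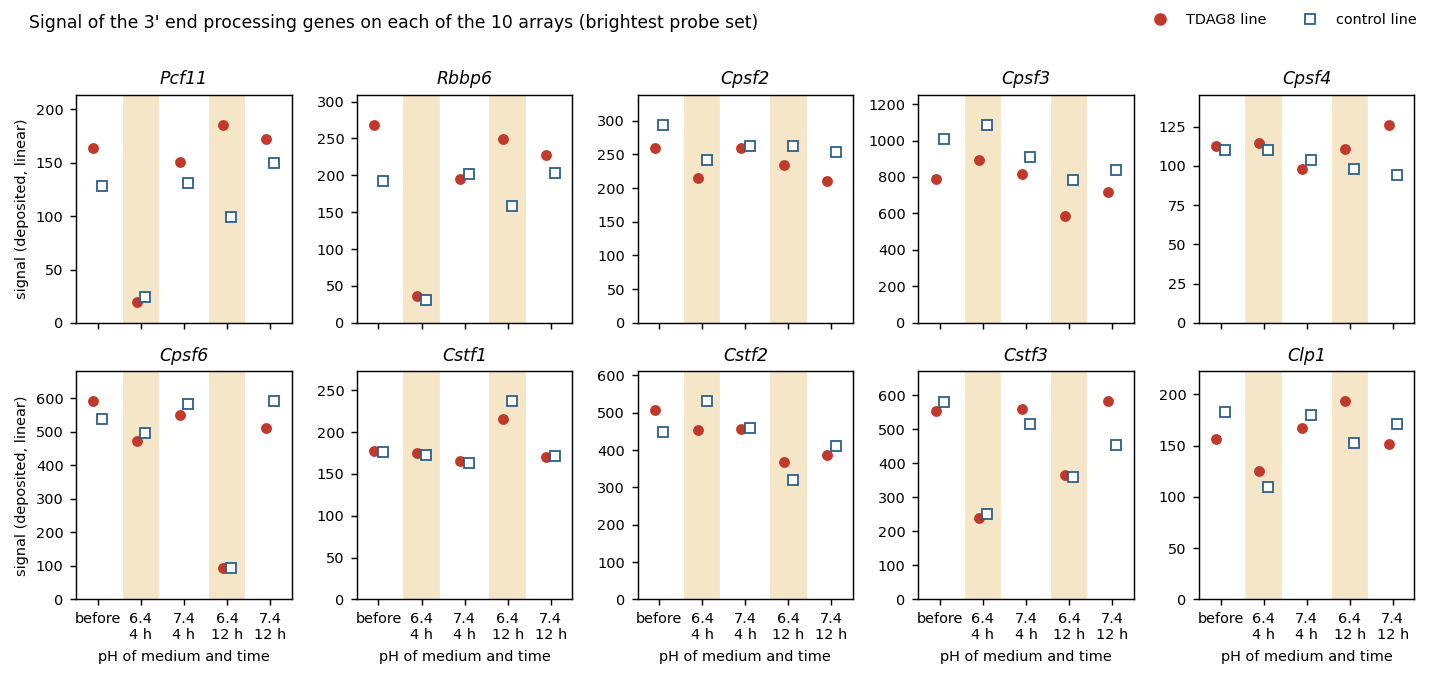
Deposited linear signal (vertical axis, from 0) of the brightest probe set of each gene on each of the 10 arrays, by condition on the horizontal axis, with TDAG8 cells as filled circles, control cells as open squares and the pH 6.4 arrays shaded. Pcf11 and Rbbp6 read lowest on the 2 arrays of pH 6.4 at 4 h, and Cpsf6 on the 2 arrays of pH 6.4 at 12 h.

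Pcf11 encodes the scaffold of cleavage factor II, which binds the tail of RNA polymerase II and takes part in both cleavage and termination. At 4 h its brightest probe set, 1427159_at, read 19.6 in TDAG8 cells and 23.9 in control cells at pH 6.4, against 151 and 131 at pH 7.4. At 12 h it read 186 and 98.9 at pH 6.4 (TDAG8 and control), against 172 and 150.2 at pH 7.4. Before treatment it had read 164 in TDAG8 cells and 128 in control cells. The 2 arrays of pH 6.4 at 4 h thus lay far below the other 8, which spanned 98.9 to 186, and the lines overlapped elsewhere. The log2 pH difference at 4 h was -2.77 in TDAG8 cells and -2.33 in control cells, or 6.83-fold and 5.03-fold lower. The values at 12 h were 0.09 and -0.53, so between the times the pH difference moved up by 2.86 (TDAG8) and 1.8 (control).

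Rbbp6 encodes a large RING finger protein that binds the retinoblastoma protein and p53, and that in human cells activates the CPSF endonuclease. Its brightest probe set, 1426487_a_at, read 36.5 in TDAG8 cells and 31.6 in control cells at pH 6.4 after 4 h, against 196 and 202 at pH 7.4. By 12 h its signal was 249 and 159 at pH 6.4 (TDAG8 and control), against 228 and 204 at pH 7.4, and before treatment 269 and 192. As for Pcf11, only the 2 arrays of pH 6.4 at 4 h stood apart, and the other 8 spanned 159 to 269. The log2 pH difference was -2.28 in TDAG8 cells and -2.57 in control cells at 4 h, and 0.1 and -0.32 at 12 h.

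In their brightest probe sets, unlike some others given below, the profiles of Pcf11 and Rbbp6 were close to each other. With each gene centred on its mean, the root mean square difference between them over the 10 arrays was 0.16 on the log2 scale. This was the smallest difference from Pcf11 among 11536 other tested genes, predicted genes left out, and both genes had been chosen with their profiles known. The next closest were Taok1 (0.2), which encodes a kinase upstream of stress-activated kinases, Fcho2 (0.39), a factor of clathrin-mediated endocytosis, Nfatc1 (0.4), a calcineurin-regulated transcription factor, and Ncoa2 (0.43), a coactivator of nuclear receptors. Taok1 read 75.5 in TDAG8 cells and 62.1 in control cells at pH 6.4 after 4 h, against 421 and 360.1 at pH 7.4. Of the other genes described here the closest to Pcf11 was Cstf3, at 0.74, and the farthest was Cpsf6, at 1.56.

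The 250 bases upstream of the annotated starts of Pcf11 and Rbbp6, which were lowest on the same arrays, and of Cpsf6, which was lowest on others, are shown to set their sequence beside these profiles. They are RefSeq sequences of build GRCm38.p6, 5′ to 3′ on the strand of the gene, at chr7:92669913-92670162 (minus strand) for Pcf11, chr7:122970314-122970563 (plus strand) for Rbbp6 and chr10:117376974-117377223 (minus strand) for Cpsf6. Capitals mark matches on either strand to the core TGACG of the cAMP response element, to the CCAAT box, to the GC box with the letters GGGCGG and to the ETS motif with the letters CCGGAAGT.
Pcf11: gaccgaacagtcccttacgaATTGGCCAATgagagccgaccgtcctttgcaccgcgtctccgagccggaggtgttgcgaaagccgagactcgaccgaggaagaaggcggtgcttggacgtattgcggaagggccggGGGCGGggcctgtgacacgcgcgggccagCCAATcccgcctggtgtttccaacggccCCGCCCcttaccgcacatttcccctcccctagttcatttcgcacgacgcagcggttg
Rbbp6: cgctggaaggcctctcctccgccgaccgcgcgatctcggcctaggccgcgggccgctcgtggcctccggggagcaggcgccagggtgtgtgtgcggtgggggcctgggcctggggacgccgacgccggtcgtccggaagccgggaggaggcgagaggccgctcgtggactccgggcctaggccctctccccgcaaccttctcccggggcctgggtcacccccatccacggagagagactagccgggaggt
Cpsf6: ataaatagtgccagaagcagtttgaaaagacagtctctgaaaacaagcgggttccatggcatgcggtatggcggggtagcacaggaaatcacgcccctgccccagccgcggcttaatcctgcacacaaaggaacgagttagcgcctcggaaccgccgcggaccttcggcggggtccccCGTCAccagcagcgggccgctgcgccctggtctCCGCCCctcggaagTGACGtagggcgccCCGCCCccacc

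Pcf11 had 3 matches to the CCAAT box, of which 2 adjoin in opposite orientation, and 2 to the GC box. Rbbp6 had 0 matches to any of the 9 motifs searched on both strands, and Cpsf6 had 2 to the core of the cAMP response element and 2 to the GC box. All 10 genes had a promoter sequence, in 11 windows together, and a gene was counted where any of its windows matched. That core was found in 5 of the 10 and in 17.8% of all 32851 windows of the same length, and the GC box in 5 and in 32.7%. The CCAAT box was found in 2 and in 33.8% of all windows, the ETS motif in 1 and in 2.88%, and the E-box, searched as CACGTG, in 1 and in 6.02%. Of the motifs found in 0 of the 10, the full cAMP response element TGACGTCA, which contains the core, was in 1.55% of all windows and the AP-1 motif TGANTCA was in 6.75%. The NRF1 motif and the TATA box TATAAA, likewise in 0 of the 10, were in 0.782% and 12.4% of all windows. The GC content of the windows was 64.4% for Pcf11, 75.2% for Rbbp6 and 64.0% for Cpsf6, and the median over all windows was 52.4%. Over the 11 windows of the 10 genes the median was 62.8% and the lowest 57.6%, and the motif shares were not adjusted for this.

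The other probe sets of Pcf11 and Rbbp6 did not all follow the brightest. For Pcf11, 1427160_at read 13.0 in TDAG8 cells and 21.8 in control cells at pH 6.4 after 4 h, against 82.1 and 77.4 at pH 7.4, and 1456489_at read 8.8 and 9.1, against 18.3 and 26.8. The fourth, 1428724_at, went the other way, with 93.3 and 98.2 at pH 6.4 after 4 h (TDAG8 and control), against 24.9 and 29.8 at pH 7.4. Its log2 pH difference at 4 h was 2.0 in TDAG8 cells and 1.75 in control cells. On these 2 arrays this probe set was above all 8 others, which read 24.9 to 69.0. At 12 h its pH difference was 0.46 in TDAG8 cells and 1.27 in control cells, with signals of 47.8 and 69.0 at pH 6.4, against 37.2 and 30.3 at pH 7.4.

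For Rbbp6, 1425115_at read 87.7 in TDAG8 cells and 117 in control cells at pH 6.4 after 4 h, against 20.1 and 21.9 at pH 7.4. All 8 other arrays read 7.4 to 26.5 for this probe set. Its log2 pH difference was 2.19 in TDAG8 cells and 2.37 in control cells at 4 h, nearly as large as that of the brightest probe set with the sign turned. The probe set 1425114_at was higher too, at 93.9 and 91.6 (TDAG8 and control), against 49.0 and 59.5 at pH 7.4, while 1453611_at did not pass the filter and read at most 10.3. At 12 h the pH differences of 1425115_at were -0.33 in TDAG8 cells and 0.59 in control cells, and those of 1425114_at were -0.26 and 0.07. The mean over all probe sets of Rbbp6 gave a pH difference at 4 h of 0.02 over both lines, against -2.42 for the brightest. That mean includes 1453611_at, at -0.69, though it did not pass the filter. The lower signal at 4 h thus holds for 1 of the probe sets past the filter and not for the gene as a whole.

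Pcf11 and Rbbp6 were thus 2 genes with probe sets that were at least 0.58 lower and probe sets that were at least 0.58 higher at 4 h, each in both lines. Of the 8 genes among the 10 with several probe sets past the filter, 25.0% were of this kind, and of 5959 such genes on the array 2.16% were. At 12 h 0 of the 8 were of this kind, and 2.03% of the 5959 were. This count was added after the probe set values had been seen, and it rests on the contrast that chose the genes, so nothing further is read from it. The place of each probe set in its transcript was not analysed here. The plot of all probe sets shows the opposite pH differences of these probe sets at 4 h.

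**Figure D2:**
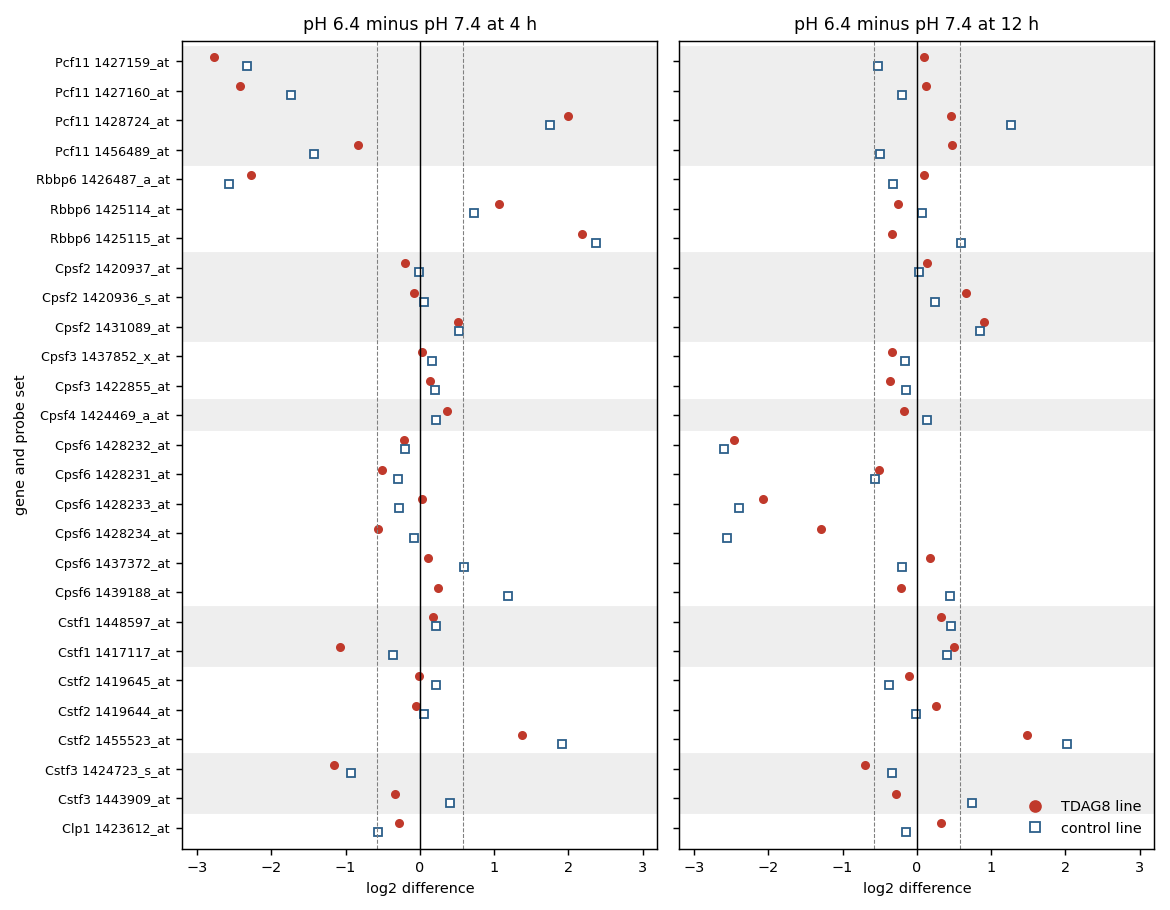
Log2 difference of pH 6.4 minus pH 7.4 (horizontal axis) for each probe set that passed the filter (rows, grouped by gene), at 4 h on the left and 12 h on the right, with TDAG8 cells as filled circles and control cells as open squares. Dashed lines mark 0.58 in each direction, and at 4 h Pcf11 and Rbbp6 have probe sets beyond both lines.

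Clp1, an RNA kinase that joins Pcf11 in cleavage factor II and also takes part in transfer RNA splicing, had 1 probe set. It read 126 in TDAG8 cells and 110.1 in control cells at pH 6.4 after 4 h, against 167 and 180.1 at pH 7.4. At 12 h it read 193 and 153 at pH 6.4 (TDAG8 and control), against 151 and 171 at pH 7.4, and before treatment 157 and 183. The 2 arrays of pH 6.4 at 4 h were the lowest of the 10 here as well, but the log2 pH differences of -0.28 in TDAG8 cells and -0.56 in control cells stayed inside the limit.

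Cpsf6 encodes the larger subunit of cleavage factor I, which favours the use of distal poly(A) sites. Its brightest probe set, 1428232_at, read 473 in TDAG8 cells and 495 in control cells at pH 6.4 after 4 h, against 549.7 and 582 at pH 7.4. After 12 h it read 93.3 and 95.2 at pH 6.4 (TDAG8 and control), against 512 and 592 at pH 7.4, and before treatment 591 and 537. Only the 2 arrays of pH 6.4 at 12 h stood apart. The log2 pH difference was -0.22 in TDAG8 cells and -0.2 in control cells at 4 h, and -2.46 and -2.6 at 12 h, or 5.49-fold and 6.06-fold lower. In this probe set the order in time was thus the reverse of that in the brightest of Pcf11 and Rbbp6. Between 4 h and 12 h its pH difference changed by -2.24 (TDAG8) and -2.4 (control).

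The 6 probe sets of Cpsf6 were not alike. The probe set 1428233_at read 97.9 in TDAG8 cells and 75.7 in control cells at pH 6.4 after 12 h, against 412 and 422 at pH 7.4, and 1428234_at read 27.4 and 12.4, against 77.4 and 93.8. Both were thus lower at 12 h, like the brightest. At 4 h the pH differences of 1428233_at were 0.03 in TDAG8 cells and -0.28 in control cells. Those of 1428234_at were -0.56 and -0.08 at 4 h (TDAG8 and control), and -1.29 and -2.56 at 12 h. In 1428231_at the pH differences at 12 h were only -0.51 in TDAG8 cells and -0.57 in control cells, with 264 and 257 at pH 6.4, against 369 and 378 at pH 7.4. At 4 h they were already -0.51 in TDAG8 cells and -0.3 in control cells. All 4 arrays of pH 6.4 read 257 to 279 in this probe set, below the 6 others at 345.5 to 455. It thus did not share the order in time of the brightest. The 2 dimmest probe sets, 1437372_at and 1439188_at, read 8.3 to 61.0 over all arrays, with pH differences at 12 h between -0.21 and 0.44.

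The other genes of cleavage factor I were set beside Cpsf6 after their values had been seen. The brightest probe set of Nudt21, the small subunit that binds the UGUA motif, had log2 pH differences at 12 h of 0.33 in TDAG8 cells and 0.52 in control cells. Its 3 other probe sets were lower at 12 h in both lines. Of these, 1428339_at read 36.4 in both lines at pH 6.4 after 12 h, against 168 in TDAG8 cells and 178 in control cells at pH 7.4. Its pH difference was -2.04 in TDAG8 cells and -2.08 in control cells at 12 h, and -0.66 and -0.68 at 4 h. Cpsf7, the subunit that can take the place of Cpsf6, had pH differences at 12 h of -0.11 in TDAG8 cells and 0.3 in control cells in its brightest probe set.

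**Figure D3:**
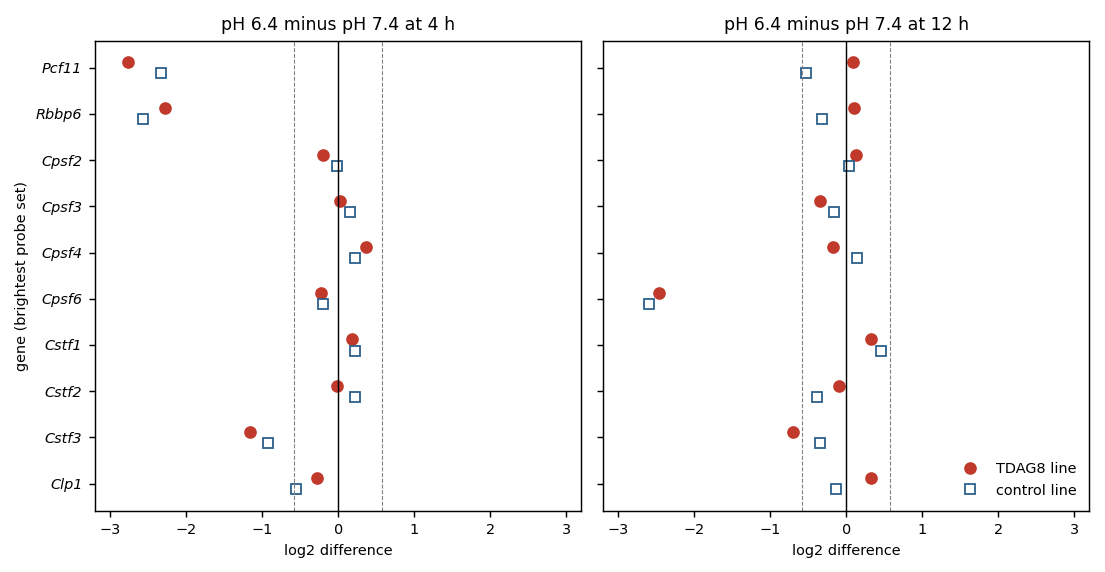
Log2 difference of pH 6.4 minus pH 7.4 (horizontal axis) in the brightest probe set of each gene (rows), at 4 h on the left and 12 h on the right, with TDAG8 cells as filled circles and control cells as open squares. Dashed lines mark 0.58 in each direction. Pcf11, Rbbp6 and Cstf3 lie beyond it in both lines at 4 h, and Cpsf6 does so at 12 h.

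Of CstF, Cstf3 encodes the scaffold subunit, Cstf2 the subunit that binds RNA and Cstf1 a WD-repeat subunit. Cstf3 read 239 in TDAG8 cells and 250.4 in control cells at pH 6.4 after 4 h, against 559.5 and 514 at pH 7.4. By 12 h its signal was 364 and 361 at pH 6.4 (TDAG8 and control), against 583 and 454 at pH 7.4, and before treatment 554 and 580.1. All 4 arrays of pH 6.4 lay below the 6 others, with the lowest at 4 h. The log2 pH difference was -1.16 in TDAG8 cells and -0.93 in control cells at 4 h, and -0.7 and -0.34 at 12 h. The probe set, 1424723_s_at, has a suffix that the maker gives to probe sets that can match transcripts of several genes, so its signal may not be that of Cstf3 alone. The same limit holds for Cpsf2 1420936_s_at, Nudt21 1455966_s_at and Rprd2 1434817_s_at, and for the brightest probe sets of Srsf2 and Scaf4. The second probe set of Cstf3, 1443909_at, read 11.5 to 21.8 over all arrays and had opposite pH differences in the lines, at -0.33 in TDAG8 cells and 0.4 in control cells at 4 h.

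Cstf2 differed between its probe sets. The brightest, 1419645_at, read 453 in TDAG8 cells and 531 in control cells at pH 6.4 after 4 h, against 456 and 459 at pH 7.4, and its pH differences were within 0.38 of 0 at both times. In 1419644_at they were within 0.26 of 0. The third, 1455523_at, read 78.1 in TDAG8 cells and 88.4 in control cells at pH 6.4 after 4 h, against 33.0 and 23.1 at pH 7.4. The 12 h signals were 81.2 and 89.1 at pH 6.4 (TDAG8 and control), against 29.1 and 22.6 at pH 7.4, and before treatment 27.0 and 24.7. All 4 arrays of pH 6.4 were above the 6 others, which read at most 33.0. The log2 pH difference of 1455523_at was 1.37 in TDAG8 cells and 1.91 in control cells at 4 h, and 1.48 and 2.02 at 12 h, at both times and in both lines beyond the limit.

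Cstf1 read 174 in TDAG8 cells and 173 in control cells at pH 6.4 after 4 h, against 166 and 163 at pH 7.4, in its brightest probe set, 1448597_at. After 12 h it read 215 and 237 at pH 6.4 (TDAG8 and control), against 169.8 and 172 at pH 7.4. The 2 arrays of pH 6.4 at 12 h were the highest of the 10, with pH differences of 0.32 in TDAG8 cells and 0.46 in control cells, inside the limit. The dimmer 1417117_at was lower at pH 6.4 after 4 h, at 31.3 and 50.0 (TDAG8 and control), against 73.8 and 69.4 at pH 7.4. It was higher at 12 h, at 94.5 and 78.8, against 67.8 and 64.6 at pH 7.4.

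Of CPSF, Cpsf3 encodes the endonuclease, Cpsf2 its inactive relative and Cpsf4 a zinc finger protein that helps to bind AAUAAA. Cpsf3 read 893 in TDAG8 cells and 1088 in control cells at pH 6.4 after 4 h, against 818 and 911 at pH 7.4. After 12 h it read 586 and 784 at pH 6.4 (TDAG8 and control), against 717 and 836 at pH 7.4. Its log2 pH differences were 0.03 and 0.16 at 4 h (TDAG8 and control) and -0.34 and -0.16 at 12 h. The brightest probe set, 1437852_x_at, has a suffix for probes shared with other sequences, but 1422855_at gave like pH differences, at 0.14 and 0.2 at 4 h (TDAG8 and control) and -0.36 and -0.14 at 12 h. The third, 1437328_x_at, read at most 4.5 and did not pass the filter.

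Cpsf2 read 209.7 to 294 over all arrays in its brightest probe set, 1420937_at, with pH differences between -0.2 and 0.13. The probe set 1431089_at was higher at pH 6.4, at 115 and 132 after 4 h (TDAG8 and control), against 88.8 and 99.1 at pH 7.4. After 12 h it read 162 and 157 at pH 6.4 (TDAG8 and control), against 84.8 and 89.8 at pH 7.4. All 4 arrays of pH 6.4 thus lay above the 6 others, which read at most 99.1, with log2 pH differences of 0.52 in TDAG8 cells and 0.53 in control cells at 4 h, and 0.91 and 0.85 at 12 h. The third, 1420936_s_at, had pH differences of 0.66 in TDAG8 cells and 0.24 in control cells at 12 h. Cpsf4, with 1 probe set, read 94.4 to 126 over all arrays, and its pH differences were between -0.17 and 0.37.

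The times were also compared at pH 7.4, in the brightest probe set of each gene. From before treatment to 4 h at pH 7.4, and from 4 h to 12 h at pH 7.4, 0 of the 10 reached 0.58 in the same direction in both lines, where 1.34% and 1.69% of all genes did. These steps share the pH 7.4 arrays with the pH differences. With 10 genes a count of 0 is near those shares, so nothing is read from it. Against the arrays before treatment, which the pH differences do not use, pH 6.4 at 4 h was lower for 3 of the 10, namely Pcf11, Rbbp6 and Cstf3, and higher for 0, where 7.7% of all genes were lower and 3.71% higher. At 12 h 2 of the 10 were lower, namely Cpsf6 and Cstf3, and 0 were higher, where 9.51% of all genes were lower and 8.2% higher. The pH 6.4 arrays themselves served to choose the genes, so these counts are given without a test. The mean log2 difference of both lines from before treatment was -2.59 for Pcf11 and -2.61 for Rbbp6 at 4 h, and -0.08 and -0.19 at 12 h. For Cpsf6 it was -0.22 at 4 h and -2.56 at 12 h, and for Cstf3 -1.13 and -0.67.

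The line comparison asked whether the receptor line differed in these genes across all 5 conditions. The contrasts that served to choose the genes did not include this one, though earlier results of these data were known. The line difference was tested with limma over 5 matched pairs of arrays and the condition as a block. None of the 10 passed at an adjusted p under 0.05, where 1.2% of all genes did, and 3 of the 10 had an unadjusted p under 0.05, where 20.8% of all genes did. The largest differences were 0.28 for Rbbp6 (SE 0.1, adjusted p = 0.213 by limma) and -0.26 for Cpsf3 (SE 0.06, adjusted p = 0.106). Averaged over its probe sets, Rbbp6 differed by -0.11, the opposite direction. Cpsf3 was lower in TDAG8 cells in 5 of 5 pairs, with a mean log2 value of 9.57 in TDAG8 cells and 9.83 in control cells. Cpsf3 did pass with another moderation of the variances, eBayes with trend and robust (adjusted p = 0.02 by limma). Cpsf2 was lower in 5 of 5 pairs too in its brightest probe set (-0.18, SE 0.06, adjusted p = 0.203 by limma), with -0.01 at pH 7.4 after 4 h. Its other probe sets were not lower in every pair. Before treatment 1431089_at read 95.9 in TDAG8 cells and 84.9 in control cells. At pH 6.4 after 12 h 1420936_s_at read 135.5 in TDAG8 cells and 128.3 in control cells. Averaged over its probe sets, Cpsf2 differed by -0.12. Pcf11 differed by 0.25 (SE 0.15, adjusted p = 0.389 by limma), and its pairs ranged from -0.25 at pH 6.4 after 4 h to 0.81 at pH 6.4 after 12 h. It differed by 0.1 when that 12 h pair was left out and by 0.05 when its probe sets were averaged. The other 6 genes differed by -0.07 to 0.09, with adjusted p-values of 0.613 to 0.977 by limma. The summed epithelial markers given above were also higher in TDAG8 cells, and their part in these line differences was not tested. Most of that sum was Krt8, with a median signal of 1985 over the arrays, against 52.2 for Krt18, the next brightest.

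**Figure D4:**
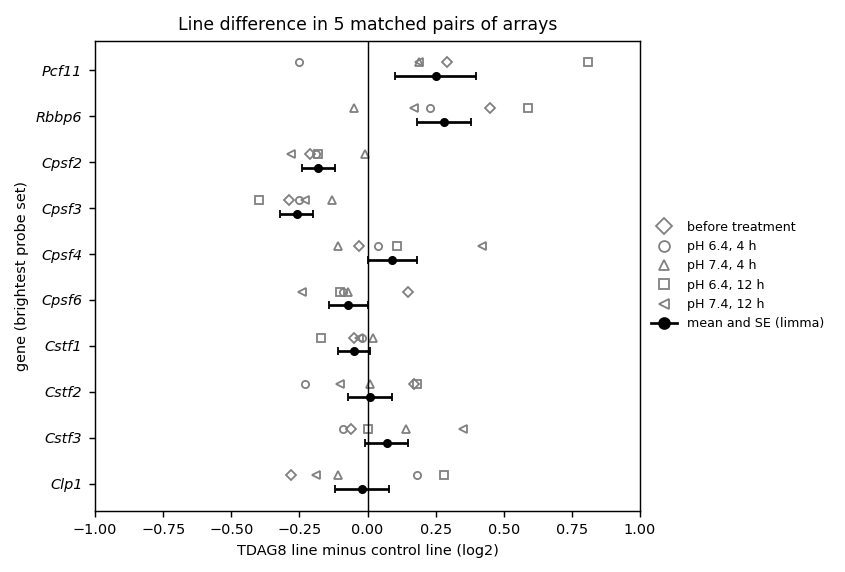
Log2 difference of TDAG8 cells minus control cells (horizontal axis) in the brightest probe set of each gene (rows), with 1 open grey symbol for each of the 5 matched pairs of arrays and the mean with its standard error from limma in black. All 5 pairs of Cpsf2 and of Cpsf3 lie below 0, and those of the other genes lie on both sides.

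Whether the pH response differed between the lines was tested with limma on the 4 pH differences, 2 per line, which left 2 residual degrees of freedom. None of the 10 genes passed, and 0.0% of all genes did, while 2.8% had an unadjusted p under 0.05. A fit that called no gene at all says nothing about likeness of the lines. The pH response of TDAG8 cells minus that of control cells was 0.09 for Pcf11 (SE 1.12), 0.35 for Rbbp6 (SE 1.08), 0.06 for Cpsf6 (SE 1.09) and -0.29 for Cstf3 (SE 0.35). The fit holds both times together, and the pH differences of the first 3 genes differed between the times. At 4 h and 12 h the difference for Pcf11 was -0.44 and 0.62. With the time added as a block, 0 of the 10 genes passed as well.

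Other genes of 3' end formation and of neighbouring steps were taken from lists that were set with earlier results of these data known. Of 11 other core cleavage and polyadenylation factors that passed the filter, 0 passed in the line test, 1 was lower and 1 higher at 4 h, and 1 was lower and 1 higher at 12 h. The gene that was lower at 4 h was Wdr33, which encodes the subunit of CPSF that contacts AAUAAA. It read 39.4 in TDAG8 cells and 48.4 in control cells at pH 6.4, against 160.3 and 174 at pH 7.4, and its pH differences were -1.89 and -1.71 (TDAG8 and control). Like Pcf11 and Rbbp6, Wdr33 had probe sets of the opposite direction at 4 h, with 1453554_a_at at 190.1 in TDAG8 cells and 175 in control cells at pH 6.4, against 51.6 and 75.2 at pH 7.4. The gene that was higher at both times was Papola, the main poly(A) polymerase. It read 1107 in TDAG8 cells and 1056 in control cells at pH 6.4 after 4 h, against 585 and 605 at pH 7.4, while its probe set 1455836_at was lower at 12 h, at 101 and 87.3, against 294 and 336.5 at pH 7.4.

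Of 19 factors that act on the tail of RNA polymerase II or in termination, 0 passed in the line test, 5 were lower at 4 h and 4 at 12 h, and 0 were higher at either time. Ppp1r10, which encodes the PNUTS subunit of a phosphatase that slows the polymerase past the poly(A) site, read 4.0 in TDAG8 cells and 2.7 in control cells at pH 6.4 after 4 h, against 52.7 and 63.6 at pH 7.4. These low signals make its log2 differences of -3.09 in TDAG8 cells and -3.69 in control cells depend on the added constant. Rprd2, which binds the polymerase tail, in its brightest probe set read 37.0 in TDAG8 cells and 43.2 in control cells at pH 6.4 after 4 h, against 203 and 221 at pH 7.4. Cdk13, a kinase of the tail, had pH differences of -1.51 in TDAG8 cells and -1.35 in control cells at 4 h, and -0.15 and -0.37 at 12 h. Scaf4 and Rprd1a, which both bind the tail, were lower at 12 h, with -1.23 and -0.78 in TDAG8 cells and -1.1 and -1.86 in control cells. Rprd2 and Cdk13 also had probe sets of opposite direction at 4 h, 2 of the 12 genes of this list with several probe sets, or 16.7%, where 2.16% of such genes on the array did. The count was 1 of 9 for the other core factors. For the lists given below it was 0 of 11 (Integrator), 0 of 6 (SR factors), 0 of 6 (exosome), 0 of 3 (histone) and 0 of 1 (U1). These counts were made after the values had been seen, and nothing is read from them. In Rprd2 1434817_s_at read 282.8 in TDAG8 cells and 246 in control cells at pH 6.4 after 4 h, against 51.1 and 76.6 at pH 7.4. After 12 h this probe set read 673 and 584 at pH 6.4 (TDAG8 and control), against 53.0 and 65.3 at pH 7.4. Rprd2 1431425_a_at was higher too, by 1.06 in both lines at 4 h and by 1.65 and 1.21 at 12 h (TDAG8 and control). The probe sets of Rprd2 were thus opposite at both times. The counts above hold Rprd2 as lower at both times by its brightest probe set, and no direction is given for the gene as a whole.

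Of 9 SR splicing factors, 0 passed in the line test, 2 were lower at 4 h, and at 12 h 4 were lower and 1 was higher. Srsf6 read 206 in TDAG8 cells and 242 in control cells at pH 6.4 after 12 h, against 1541 and 1549.9 at pH 7.4, and Srsf2 read 546 and 413, against 2169 and 2305. Srsf1 and Srsf5 were lower at 12 h as well, with pH differences of -1.26 and -1.24 in TDAG8 cells and -1.23 and -0.98 in control cells. Of 14 Integrator subunits, which cut small nuclear RNAs, 1 was lower and 0 were higher at 4 h, and 1 was lower and 2 were higher at 12 h. The gene lower at 4 h was Ints5, at 606 in TDAG8 cells and 536 in control cells at pH 6.4, against 1167 and 1179.8 at pH 7.4.

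Of 15 genes of the nuclear exosome and its helpers 1 was lower and 1 higher at 4 h, and 1 was lower and 3 higher at 12 h. Of 6 genes for histone pre-mRNA processing 0 were lower or higher at 4 h and 1 was higher at 12 h, and of 2 measured U1 particle genes 0 were lower or higher at either time. In the line test 0 genes of these lists and of Integrator passed. The genes counted here and not yet named, given after their values were seen, were Pabpn1 of the core factors (lower at 12 h), the tail phosphatase and kinase genes Rpap2 and Cdk12 (lower at 4 h) and Srsf4 (higher at 12 h). Of Integrator they were Ints6 (lower at 12 h), Ints2 and Ints12 (higher at 12 h, though Ints12 1428985_at was lower, by -0.59 in TDAG8 cells and -0.64 in control cells), and of the histone genes Lsm11 (higher at 12 h). Of the exosome list they were Zcchc8 (lower at 4 h), Zfc3h1 (lower at 12 h), Exosc3 (higher at both times) and Exosc2 and Exosc4 (higher at 12 h). The median log2 pH difference at 4 h was -0.21 in TDAG8 cells and -0.1 in control cells over the 10 genes, 0.1 and 0.14 over the other core factors, and 0 in both lines over all tested genes. The median at 12 h was 0 in TDAG8 cells and -0.24 in control cells over the 10 genes, -0.03 and 0.32 over the other core factors, and 0.02 in both lines over all tested genes.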

How the data were processed

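The authors' deposited table holds intensity per probe set on a linear scale, per the labels from biotin-labelled cRNA of RNA pooled from 4 cultures per array (2 µg). No source used here names the software. With a 2% trimmed mean of 100 on each array, the deposited intensities had been scaled to a common target, and array medians were 11.7 to 13.8. Of 45101 probe sets, those with 1 gene symbol (34945) were used, and those with several (932), none (9160) or control sequences (64) were not.

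Because the medians spanned 0.24 on the log2 scale, signals were quantile normalised and taken as log2(signal + 2.36), the constant being the 20th percentile. The brightest probe set by mean stood for a gene. Genes with a mean log2 value of at least 3.17, the 40th percentile (a signal of about 6.6), were tested, which left 12161. The lines were compared by limma 3.58.1 in R 4.3.3 (lmFit and eBayes, Benjamini-Hochberg over all tested genes, threshold 0.05, 4 residual degrees of freedom). Conditions stand in for replicates and cultures were pooled, so a p-value covers only differences between arrays, which may be technical. The test was checked on simulated data.

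The genes, lists and tests were chosen with earlier results of these data known. From the lists, the 12 genes with the largest difference among those past the limit in both lines, or in the line test, were named, and for likeness to Pcf11 the 5 closest. Alternatives were other normalisations, constants, filters, limits and probe set rules, arrays left out, no block and another moderation. Probe sets of opposite direction were counted after the values had been seen. Some genes of the lists are not analysed here.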

Additional observations from a re-analysis of the deposited data

Results flagged for a closer look

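For 4 probe sets the pH difference had one sign at 4 h and the other at 12 h, each in both lines, and in none of them was the difference between the times tested. In Cpsf2 1420937_at the pH difference at 12 h minus that at 4 h was 0.18 over both lines, with pH differences of at most 0.2 in size. It was -0.35 in Cpsf3 1437852_x_at and -0.42 in Cpsf3 1422855_at, so the probe sets of the endonuclease gene that passed the filter both read higher at pH 6.4 after 4 h and lower after 12 h. In Cstf1 1417117_at it was 1.18, with the lowest signals of the 10 arrays at pH 6.4 after 4 h and the highest at pH 6.4 after 12 h.

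In Cstf3 1443909_at the lines had pH differences of opposite sign at both times, and that of TDAG8 cells minus that of control cells was -0.87. Its signals, at 11.5 to 21.8, were near or above the array medians and far below those of the brightest Cstf3 probe set. This difference between the lines was not tested either. The genes had been chosen with these pH differences known.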

How the results depend on the processing

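In the line test 1 of the 10 genes passed with eBayes with trend and robust, Cpsf3 (adjusted p = 0.02 by limma), and 0 passed under every other alternative run, including each pair of arrays left out in turn (0 to 0). The adjusted p of Cpsf3 was 0.02 to 0.837 over the alternatives. Of all genes 146 passed in the line test, against 89 under median centring, 96 and 263 with a lower and a higher constant, 8 with every gene kept, 587 under a stricter filter, 881 under trend and robust, 15 when the block was dropped, 6 over the treated arrays and 4 to 28 with a pair left out.

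Averaging all probe sets of a gene left 1 gene lower at 4 h, against 3 with the brightest. Of all genes 1111 were then past the limit in either direction at 4 h, against 1531 with the brightest. The count past the limit at 12 h was 1, and 2 in TDAG8 cells alone and 1 in control cells alone, where that of all genes was 2467, and 4186 and 4272 in TDAG8 and control cells alone. The count whose pH difference differed between the times was 3, and changed to 4 under median centring and 2 when probe sets were averaged. That of all genes was 2152, against 2378 under median centring and 1616 when averaged. In TDAG8 and control cells alone the counts were 4 and 5, and those of all genes 4230 and 4516. Against before treatment the count at 4 h was 3, and 1 when probe sets were averaged, where that of all genes was 1387, and 998 when averaged. In TDAG8 and control cells alone it was 3 and 4, and that of all genes 2720 and 3088. At 12 h the count against before treatment was 2, and 1 under each of median centring, averaged probe sets and a limit of 1. That of all genes was 2153, against 2198, 1695 and 675 in the same order. Averaged over its probe sets, the pH difference of Rbbp6 turned to 0.02 at 4 h (-2.42 for the brightest), and its difference between the times to -0.3 (2.31 for the brightest). Averaging also moved Pcf11 to -0.97 at 4 h (-2.55 for the brightest) and to 1.12 between the times (2.33), Cpsf6 to -1.19 at 12 h (-2.53) and to -1.19 between the times (-2.32), and Cstf3 to -0.5 at 4 h (-1.04). It gave Cstf2 0.55 at 12 h, against -0.24 for the brightest. Of 210 recomputed pH differences 170 moved by no more than the spread between the lines. Of those past the limit, only the 2 of Rbbp6 changed sign. Some within the limit changed sign too when probe sets were averaged. Examples were Cstf1 at 4 h (0.2 to -0.26), Cpsf2 at 4 h (-0.1 to 0.14) and Pcf11 at 12 h (-0.22 to 0.15). Of 150 recomputed line differences 11 changed sign, none of them past the test. Pcf11 was 0.05 when its probe sets were averaged and 0.1 without the pair of pH 6.4 at 12 h, against 0.25. Rbbp6 turned to -0.11 when its probe sets were averaged. Cstf2 was -0.02 under median centring, 0.0 when averaged and -0.04 over the treated arrays, and Clp1 was 0.0 as deposited and 0.04 over the treated arrays. With a pair left out Cstf2 ranged over -0.04 to 0.06, Cstf3 over -0.01 to 0.11 and Clp1 over -0.1 to 0.04. The labels give no replicate numbers, and the pairs of the line test are arrays of the same condition. With 1 array per line and condition, the spread between cultures was not measured.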
